A study of Mus musculus with 2 samples.

Results

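The genes described here encode the subunits of the proteasome and the proteins that assemble and regulate it, measured in mouse embryonic stem cells (mESCs) that had lost AIMP3. They were taken as every gene whose symbol starts with *Psma*, *Psmb*, *Psmc*, *Psmd*, *Psme*, *Psmf* or *Psmg* followed by a number, leaving out the immunoproteasome subunits *Psmb8*, *Psmb9* and *Psmb10*. The symbols *Psmc3ip* and *Psme3ip1* match these letters only and were not counted. This gave 45 genes on 56 probes, namely 16 genes of the 20S core, 17 of the 19S cap, 5 activators and regulators and 7 assembly chaperones. Of these, 44 were measured, among 24023 genes tested on the arrays. The exception was *Psmb11*, the catalytic subunit of the thymus-type proteasome, whose probe was not well above background in either channel of either array.

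The proteasome degrades proteins that carry chains of ubiquitin. Its 20S core is a barrel with outer rings of alpha subunits, which gate the entrance, and inner rings of beta subunits, some of which cut peptide bonds. The 19S cap binds ubiquitin chains, removes them and threads the substrate into the barrel through a ring of ATPases, other activators can take the place of the cap, and dedicated chaperones help both particles to assemble. Embryonic stem cells are known for high proteasome activity.

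The cells were AIMP3f/f;cre-ERT2 mESCs, in which the AIMP3 gene (*Eef1e1* in the mouse annotation) is flanked by loxP sites and the tamoxifen-activated Cre recombinase deletes it. AIMP3-depleted cells received 2 µM tamoxifen (4-OHT) for 4 days in medium with LIF, which keeps mESCs undifferentiated, and control cells of the same genotype received the ethanol solvent. Both arms carried the floxed allele and the recombinase, so the comparison was of tamoxifen against its solvent, with no cells lacking the recombinase among the samples. RNA of 2 AIMP3-depleted replicates was labelled with Cy5 and set, on 1 two-colour Agilent array each, against a pool of RNA from the control replicates labelled with Cy3. The pool counted as 1 control sample. Cy5 marked the depleted cells on both arrays, which shared 1 slide, and the labels do not say whether the replicates were separate cultures. Tests therefore measured the spread between 2 arrays only, left out the spread of the controls, and could not tell a dye effect from an effect of depletion.

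*Eef1e1* itself was lower on both arrays, with log2 ratios of depleted over control of -0.90 and -0.90 (limma, adjusted p = 5.11e-05). Whether its probe lies in the deleted part is not given in the sources used here. Each array held 59305 spots other than controls, none saturated. All 9 stem cell markers of a fixed list were measured, with 6 lower and 2 higher after depletion (4 and 3 with the median centring described below). All 7 measured fibroblast markers of 8 (*Lum* was not well above background) and all 6 endoderm markers were higher, and the mean log2 level of the fibroblast list went from 10.42 and 10.46 in the control channel to 11.18 and 11.15 in the depleted channel. In the labels the cells were generally grown on feeder layers, whereas the study's methods give medium conditioned by such cells for incubations with drugs. In bulk RNA fewer cells of a type cannot be told apart from less RNA per cell. The part of these shifts in the results on proteasome genes was not tested.

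Promoters of the members are shown first, before the ratios. Mouse RefSeq start sites (build GRCm38.p6) gave 40 promoters for 37 of the 45 genes, each with 250 bases before and 50 after the start site. They were searched on both strands for the letters TGACNNNGC (the core of the antioxidant response element, bound by Nrf1 and Nrf2, which induce proteasome genes), CCAAT (the CCAAT box bound by NF-Y) and GGGCGG (the GC box bound by Sp1), and matches of different motifs overlapped at 1 place. Below are the 250 bases before the start site, 5′ to 3′ on the strand of the gene, with matches in capitals. The first set, *Psmg1*, *Psmg3* and *Psmg4*, belongs to the assembly chaperones called lower after loess but not with median centring, both described below. In it, *Psmg4* holds a GC box and the windows of the other two hold none of the letters searched.
Psmg1 (chr16:95990961-95991210, minus strand): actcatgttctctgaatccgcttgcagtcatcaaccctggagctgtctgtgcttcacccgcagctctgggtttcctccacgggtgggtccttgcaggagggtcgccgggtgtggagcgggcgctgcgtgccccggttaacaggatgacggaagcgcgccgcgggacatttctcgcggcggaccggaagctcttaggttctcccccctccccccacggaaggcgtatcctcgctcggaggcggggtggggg
Psmg3 (chr5:139826895-139827144, minus strand): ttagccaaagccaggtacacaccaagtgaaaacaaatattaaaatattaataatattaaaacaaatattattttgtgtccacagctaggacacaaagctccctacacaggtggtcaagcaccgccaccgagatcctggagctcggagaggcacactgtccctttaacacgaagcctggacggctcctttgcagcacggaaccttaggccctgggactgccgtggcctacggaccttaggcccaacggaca
Psmg4 (chr13:34162714-34162963, plus strand): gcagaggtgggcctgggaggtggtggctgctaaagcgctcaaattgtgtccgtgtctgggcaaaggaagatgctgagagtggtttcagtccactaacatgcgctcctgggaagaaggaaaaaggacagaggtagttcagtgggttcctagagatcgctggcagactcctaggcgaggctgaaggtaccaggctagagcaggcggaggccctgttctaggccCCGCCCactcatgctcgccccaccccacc

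The second set holds *Psme3*, the member with the highest ratio, and *Psma3*, whose ratio was near 0. Both contain a CCAAT box, written ATTGG where it lies on the other strand.
Psme3 (chr11:101315963-101316212, plus strand): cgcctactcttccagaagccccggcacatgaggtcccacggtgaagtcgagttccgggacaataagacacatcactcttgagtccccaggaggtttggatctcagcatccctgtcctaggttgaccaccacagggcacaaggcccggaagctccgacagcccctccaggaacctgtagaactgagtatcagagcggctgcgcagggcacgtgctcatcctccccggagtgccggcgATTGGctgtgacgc
Psma3 (chr12:70974373-70974622, plus strand): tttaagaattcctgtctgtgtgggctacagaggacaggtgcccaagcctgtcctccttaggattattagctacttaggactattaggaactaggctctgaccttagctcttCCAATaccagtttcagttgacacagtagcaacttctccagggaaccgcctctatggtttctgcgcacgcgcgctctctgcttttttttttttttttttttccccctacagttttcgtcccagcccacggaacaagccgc

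The third set holds *Psmb5* and *Psmc6*, both called higher, although the dimmer probe of *Psmb5* read -0.27. They are shown for their motif, which *Psmd12* and *Psme4*, both called lower, hold as well. Each contains the core of an antioxidant response element (reverse complemented in *Psmc6*) and *Psmc6* also holds several GC boxes.
Psmb5 (chr14:54617996-54618245, minus strand): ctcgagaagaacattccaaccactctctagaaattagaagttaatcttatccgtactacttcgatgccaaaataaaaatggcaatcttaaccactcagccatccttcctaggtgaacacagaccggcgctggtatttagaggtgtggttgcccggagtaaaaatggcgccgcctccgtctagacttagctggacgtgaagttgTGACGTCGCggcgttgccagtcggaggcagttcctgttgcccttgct
Psmc6 (chr14:45329574-45329823, plus strand): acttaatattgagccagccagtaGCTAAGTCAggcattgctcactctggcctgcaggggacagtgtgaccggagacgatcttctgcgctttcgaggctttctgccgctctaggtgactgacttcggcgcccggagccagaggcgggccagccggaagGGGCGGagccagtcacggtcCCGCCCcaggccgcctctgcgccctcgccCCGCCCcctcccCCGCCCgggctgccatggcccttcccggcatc

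In AIMP3-depleted mESCs, after the dye normalization used here (loess), no member passed 1.5-fold with p under 0.05 in either direction, against 0.791% of all genes tested that were lower and 5.52% that were higher by this rule. At an unadjusted limma p under 0.05 there were 26 of the 44 (59.1%), beside 60.5% of all genes. For 43 of the 44, the whole 95% confidence interval of the log2 ratio lay within 1.5-fold up or down, and the exception was *Psme3*. The same was true of 89.3% of all genes. With median centring of the arrays, described below, 38 members met this rule beside 79.8% of all genes, and *Psmb5*, *Psmb6*, *Psmc3*, *Psmc6* and *Psmd8* also reached past it. The arrays were close to each other: the median SD between replicates was 0.031 over the members, against 0.048 over all genes, and 40 of the 44 had the same sign on both arrays. The other 4, *Psma6*, *Psmb2*, *Psmd9* and *Psmd10*, had means between -0.02 and 0.01. The members were brighter than most genes, and neither the SD nor the shared sign was compared with equally bright genes. Both arrays also used the same control pool. The intervals reached a median of 0.11 to either side of the mean, and those of the 20 members not called by the adjusted p below ran from -0.23 to 0.19.

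At an adjusted p under 0.05, 20 members were lower and 4 higher after loess, the intensity-dependent dye normalization used throughout unless stated. These are 45.5% and 9.09% of the members, beside a background of 23.7% of all genes tested called lower and 30.6% called higher. The median log2 ratio of the members was -0.10 on replicate 1, -0.11 on replicate 2 and -0.11 for the mean, whereas that of all genes was 0.02. This direction turned with the dye normalization: centring each array on its median, which moved the median of all genes to 0.18, put the members at 0.20 with 1 lower and 27 higher, and relative to all genes they were then 0.02 above instead of 0.12 below. Under that setting 8.76% of all genes were called lower and 54.5% higher, and 65.7% of equally bright genes were higher, so that the 61.4% of members called higher lay near the background. Calls of a rise or fall below refer to loess, and each group is given with its count under median centring, to be read against these shares. With the scanner's processed signals in place of loess, 13 of the 20 members stayed lower and 2 of the 4 higher, and these were 12 and 2 with the authors' table. Calls lost under both were *Psma5*, *Psmb1*, *Psmb4*, *Psmb5*, *Psmb7*, *Psmc6*, *Psmd1*, *Psmd2* and *Psme2*, and *Psma4* was lost with the authors' table alone. *Psmb4*, *Psmd1*, *Psmd2* and *Psme2* were called higher with median centring.

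Proteasome genes were bright on the arrays, and their median brightness (the mean log2 intensity of both channels) was 13.87, against 9.75 for all genes. Among the 3282 genes whose brightness lay between the members' lower and upper quartiles (12.63 and 15.07), 34.7% were called lower and 26.6% higher. When each member was set against the 500 tested genes nearest to it in brightness, 30 members were below the median of those neighbours and 14 above it, and they were the same 30 and 14 under loess and under median centring. The median distance was -0.06 under both. Loess and median centring differ by an amount that depends on brightness, so genes of equal brightness move nearly together. Distances from equally bright genes therefore had to be nearly the same under both, and their agreement is not separate evidence. Single members lay up to 0.50 from their neighbours.

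**Figure D1:**
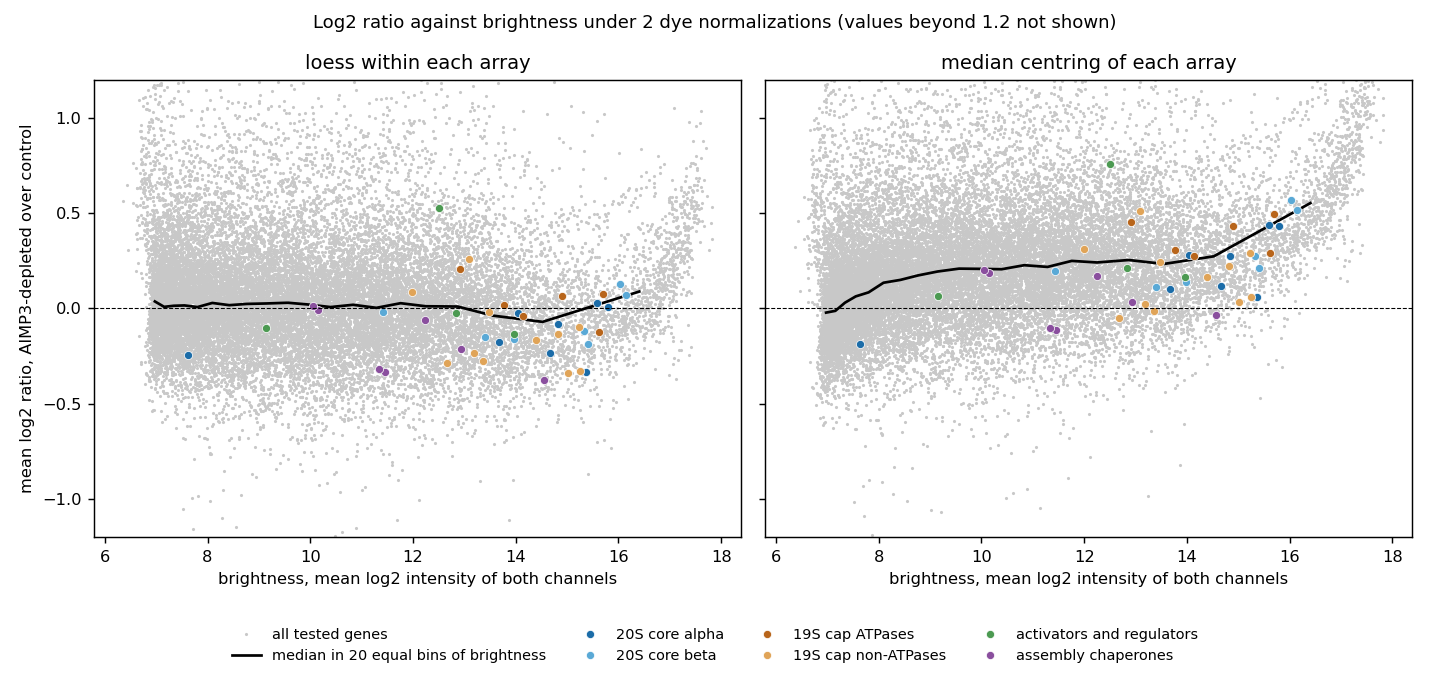
Mean log2 ratio of AIMP3-depleted over control (vertical axis) against brightness (horizontal axis, mean log2 intensity of both channels) after loess and after median centring. Grey points are the 24023 tested genes, the black line is their median in bins of brightness and coloured points are the 44 proteasome genes by class, whose median is -0.11 under loess and 0.20 under median centring, with *Psme3* the highest in both.

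Among the 8 alpha subunits of the 20S core, 4 fell and none rose, whereas with median centring 1 was lower and 4 higher. *Psma7* was the lowest, at -0.35 and -0.32 on the arrays (-0.34 ± 0.02, SD, n = 2; limma, adjusted p = 0.0013), which is 1.26-fold. Its control levels were 15.56 and 15.51 on the log2 intensity scale and its depleted levels 15.21 and 15.19, where both control values are of the same pool. With median centring *Psma7* was at 0.06 and not called. *Psma5* (-0.25 and -0.22; -0.15 with processed signals and -0.11 with the authors' table) and *Psma4* (-0.21 and -0.14) fell as well. *Psma8*, the alpha subunit of the testis-type proteasome, fell to -0.32 and -0.17, but was the dimmest member, at a brightness of 7.63, and went from -0.24 to -0.39 with processed signals. Close to 0 were *Psma2* (0.00 and 0.02) and *Psma3* (0.02 and 0.04), subunits of the same ring as *Psma7*. The alpha genes thus spread from -0.34 to 0.03.

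Of the 7 measured beta subunits, 3 fell and 1 rose, and with median centring none was lower and 5 were higher. *Psmb4*, a subunit without catalytic activity, was the lowest, at -0.18 and -0.19 (limma, adjusted p = 0.013), but was called higher with median centring (0.21), followed by *Psmb1* (-0.15 and -0.17). The beta subunits include the 3 catalytic ones of the constitutive proteasome. *Psmb7*, the trypsin-like subunit, fell (-0.16 and -0.14), and *Psmb6*, the caspase-like subunit, did not pass the test (0.10 and 0.04). *Psmb5*, the chymotrypsin-like subunit and target of bortezomib, was called higher at 0.13 on both arrays (limma, adjusted p = 0.046), but its dimmer probe gave -0.27, and the mean of both probes was -0.07. The direction of *Psmb5* therefore depended on the probe. Alpha and beta subunits as groups had medians of -0.13 and -0.12, a difference of -0.02 and -0.00 on the arrays.

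The inducible subunits that replace the catalytic ones in the immunoproteasome, left out of the members, all fell, and 2 of the 3 were also called lower with median centring. *Psmb8*, which replaces *Psmb5*, gave -0.74 and -0.61 at a low brightness of 7.94, and its mean went from -0.68 to -1.11 with processed signals and -1.07 with the authors' table. *Psmb9*, which replaces *Psmb6*, gave -0.41 and -0.30, and *Psmb10*, which replaces *Psmb7*, gave -0.34 and -0.24. The inducible minus the constitutive log2 ratio was -0.87 and -0.74 at the *Psmb5* site, -0.51 and -0.34 at the *Psmb6* site, and -0.18 and -0.10 at the *Psmb7* site. With the dimmer *Psmb5* probe, at -0.24 and -0.30, the difference at the *Psmb5* site was -0.50 and -0.32, so that the order of the *Psmb5* and *Psmb6* sites turned with the probe. These differences were not tested.

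In the 19S cap, none of the 6 ATPases fell and 1 rose, with a median of 0.04, and all 6 were higher with median centring. *Psmc6* was the highest, at 0.19 and 0.23 (0.21 ± 0.03, SD, n = 2; limma, adjusted p = 0.0086), but gave 0.11 with processed signals and 0.15 with the authors' table, not called in either and below *Psmc2* in both. *Psmc1* was the lowest, at -0.09 and -0.16 (limma, adjusted p = 0.063). As the mean of both its probes *Psmc1* was at -0.15 and called lower (limma, adjusted p = 0.026). The probes of *Psmc3* gave 0.08 and -0.01, neither far from 0. Of the 11 non-ATPase subunits 7 fell and 1 rose, with a median of -0.16, and with median centring none was lower and 6 were higher. Their median minus that of the ATPases was -0.18 on replicate 1 and -0.23 on replicate 2, a difference that was not tested.

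Most of the cap genes that fell belong to the lid, the part of the cap that carries the deubiquitinase. Of the 8 lid genes among the members 5 fell and 1 rose, with a median of -0.25, and with median centring none was lower, 3 were higher and the median was 0.05. *Psmd12* was the lowest, at -0.30 and -0.38 (-0.34 ± 0.06, SD, n = 2; limma, adjusted p = 0.0015), next to *Psmd3* (-0.35 and -0.30), *Psmd11* (-0.28 and -0.30), *Psmd7* (-0.32 and -0.23) and *Psmd13* (-0.17 and -0.29). The 95% intervals of these 5 overlapped. *Psmd14*, the deubiquitinase itself, did not pass the test (0.11 and 0.06), nor did *Psmd6* (-0.04 and 0.00). The lid gene that rose was *Psmd8*, at 0.30 and 0.23 (0.26 ± 0.05, SD, n = 2; limma, adjusted p = 0.0039), with control levels of 12.96 and 12.97 and depleted levels of 13.26 and 13.20. *Psmd8* and *Psme3* were the only members called higher under each of the 5 normalizations tried, and the share of all genes called so was not counted. Of the 3 non-ATPases of the base among the members, *Psmd1* (-0.17 and -0.10) and *Psmd2* (-0.14 and -0.19), the large scaffold subunits, fell, and *Psmd4*, a ubiquitin receptor, did not pass the test (-0.12 and -0.08). The cap subunits *Sem1* and *Adrm1*, whose symbols do not match the rule, are counted below with the partners. They gave -0.09 and 0.03 (*Sem1*) and 0.01 and 0.05 (*Adrm1*), not called, and were called higher with median centring.

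**Figure D2:**
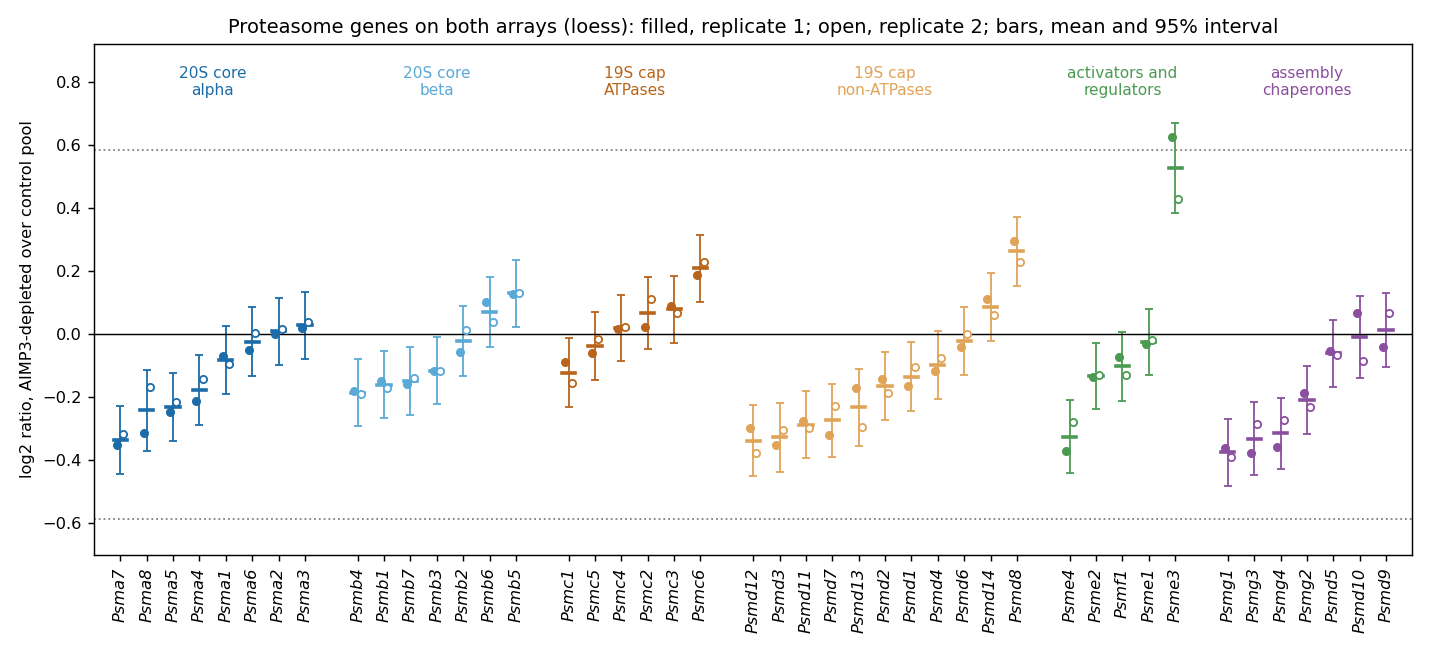
Log2 ratio of AIMP3-depleted over the control pool (vertical axis) for the 44 measured proteasome genes (horizontal axis), by class, after loess. Filled points are replicate 1, open points replicate 2, horizontal bars the mean, whiskers its 95% limma interval and dotted lines 1.5-fold. *Psme3* stands highest at 0.53 and *Psmg1* lowest at -0.38, and median centring moves all members up, to a median of 0.20.

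The activators held both the highest ratio of all members and one of the lowest. *Psme3* encodes PA28γ, a nuclear activator through which the core degrades certain proteins without ubiquitin. It rose to 0.63 on replicate 1 and 0.43 on replicate 2 (0.53 ± 0.14, SD, n = 2; limma, adjusted p = 0.00068), 1.44-fold, from control levels of 12.15 and 12.34 to 12.77 on both arrays. The gap between replicates lay in the control channel, and the SD was the largest among the members. On replicate 1 alone the ratio was past 1.5-fold, and median centring took its mean to 0.76. Its distance from equally bright genes was 0.50 under loess and under median centring, an agreement built into that comparison. *Psme3* had the highest ratio of all members under each of 8 settings, between 0.50 and 0.76. These settings use the same 2 arrays and are not independent. The loess value of 0.53 was the same with no filter, a stricter filter or the mean of all probes.

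*Psme4*, which encodes PA200, another nuclear activator, gave -0.37 and -0.28 (-0.33 ± 0.06, SD, n = 2; limma, adjusted p = 0.0019), and its dimmer probe -0.19. It stayed below 0 under median centring, at -0.11, but was not called there. *Psme1* and *Psme2*, the subunits of the interferon-inducible activator PA28, gave -0.03 and -0.02 and, for *Psme2*, -0.14 and -0.13 (limma, adjusted p = 0.042). *Psmf1*, an inhibitor of the core, gave -0.07 and -0.13 and did not pass the test. Of the 5 genes 2 fell and 1 rose, and with median centring none was lower and 3 were higher.

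*Psmg1* to *Psmg4*, which form the heterodimers on which the alpha ring is built, all fell, whereas *Psmd5*, *Psmd9* and *Psmd10*, which guide the assembly of the cap's ATPase ring, did not pass the test. The difference between these groups was not tested, and the 95% intervals of *Psmg2* and *Psmd5* overlapped. With median centring none of the 4 *Psmg* genes was called in either direction, and the 3 cap chaperones were called higher. *Psmg1* had the lowest ratio of all members after loess, at -0.36 and -0.39 (-0.38 ± 0.02, SD, n = 2; limma, adjusted p = 0.00081), and its other probe gave -0.42. *Psmg3* gave -0.38 and -0.29, *Psmg4*, its partner in the second heterodimer, gave -0.36 and -0.27, and *Psmg2*, the partner of *Psmg1*, gave -0.19 and -0.23. Control levels of *Psmg1* were 14.77 and 14.73 and depleted levels 14.40 and 14.34. Like those of all members but *Psme3*, the 95% interval of *Psmg1* lay within 1.5-fold after loess.

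The median of *Psmg1* to *Psmg4* was -0.36 on replicate 1 and -0.28 on replicate 2, below that of the 20S core they help to build by -0.24 and -0.16. Under median centring it was -0.07, while the core was at 0.21, so the distance between the groups kept its sign. It was between -0.28 and -0.19 over the 8 settings, which are not independent. The median distance of the 4 from equally bright genes was -0.31 under loess and under median centring, an agreement built into that comparison. *Psmg1*, *Psmg3* and *Psmg4* kept a negative ratio under all 5 normalizations, but were not called lower under median centring. The cap chaperones gave -0.05 and -0.07 (*Psmd5*), -0.04 and 0.07 (*Psmd9*) and 0.07 and -0.08 (*Psmd10*). The dimmer probes of *Psmd9* and *Psmd10* read 0.23 and 0.25, so that *Psmd10* changed sign with the probe. As the mean of both probes *Psmd10* was at 0.12 and called higher (limma, adjusted p = 0.049). *Psmd9* was then at 0.12 and not called (limma, adjusted p = 0.054).

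By class, the medians were -0.12 for the 20S core (7 of 15 lower, 1 higher), -0.10 for the 19S cap (7 of 17 lower, 2 higher), -0.10 for the activators and regulators (2 of 5 lower, 1 higher) and -0.21 for the assembly chaperones (4 of 7 lower, none higher). The core and the cap differed by -0.03 and -0.04 on the arrays. Under loess 23.7% of all genes were called lower and 30.6% higher. Among genes as bright as the middle of all members these were 34.7% and 26.6%. With median centring all of these class medians were above 0, at 0.21, 0.27, 0.17 and 0.03. In the core 1 gene was then lower and 9 higher. In the other classes none was lower, and 12, 3 and 3 were higher, beside 54.5% of all genes. The chaperones had the lowest class median under each of the 8 settings, and that order used no test, since members of a class are not replicates. Nor are the settings independent: the chaperone median of -0.21 was the same with no filter, a stricter filter or the mean of all probes. The authors' table follows the processed signals with a near-constant shift. Across the 5 normalizations 17 of the 44 members kept 1 direction, 7 of them lower (*Psma8*, *Psmd7*, *Psmd11*, *Psme4*, *Psmg1*, *Psmg3* and *Psmg4*) and 10 higher. *Psma8* alone was called lower in all 5. The shares of all genes that keep 1 direction or 1 call over the 5 normalizations were not counted, so these counts have no background.

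**Figure D3:**
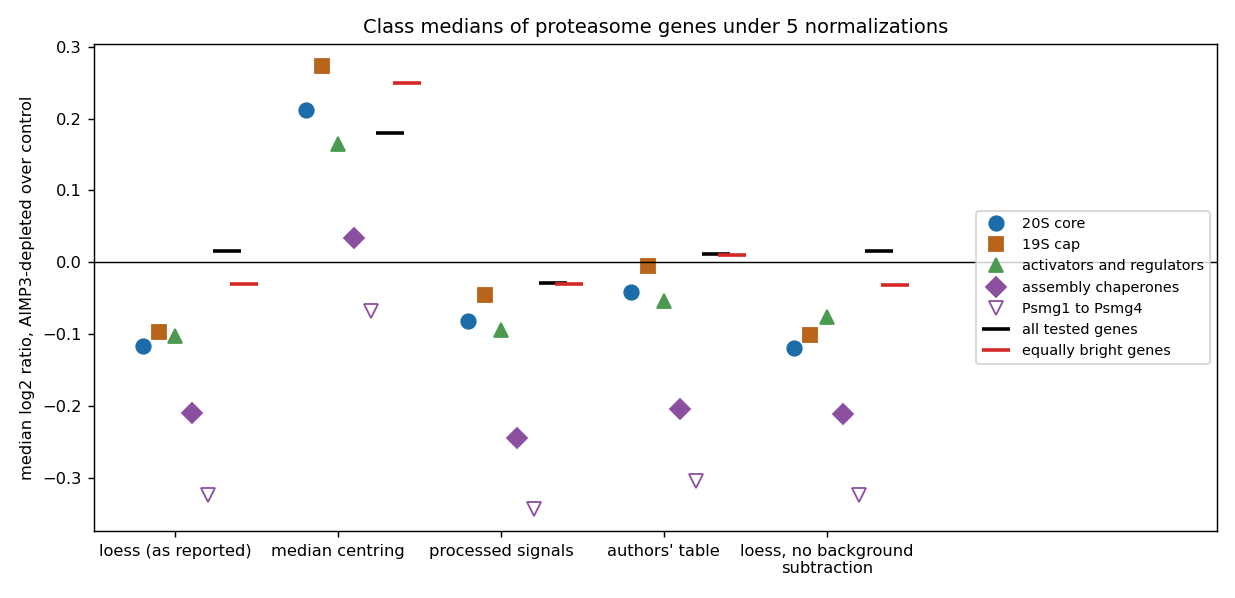
Median log2 ratio of AIMP3-depleted over control (vertical axis) for each class of proteasome genes under 5 normalizations (horizontal axis), with the medians of all tested genes and of equally bright genes as bars. The level moves with the normalization, from -0.12 to 0.21 for the 20S core, while the chaperones stay below the other classes and *Psmg1* to *Psmg4* lowest.

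Of the 11 members with a pair of tested probes, 6 pairs differed by less than 0.1 and 3 (*Psmb5*, *Psmc3* and *Psmd10*) had opposite signs, with the widest gap, 0.40, at *Psmb5*. The probe sequences were not used here, so whether a probe also binds processed pseudogenes, which are common for abundant transcripts, was not tested.

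Set against the promoters, the CCAAT box was found in 1 of 15 promoters of members called lower and in 11 of 24 promoters of the other measured members. No promoter was used here for *Psma8*, *Psmb1*, *Psmb2*, *Psmb7*, *Psmc3*, *Psmd3*, *Psmd7* and *Psmg2*, 6 of them among the 20 members called lower. In all, 32.5% of member promoters held it, and 37.4% of all 32851 promoters. The member called lower that held it was *Psma7*. Counted by gene, the 12 members with a CCAAT box had a median log2 ratio of -0.02 (range -0.34 to 0.53) and the 24 without it -0.13 (range -0.38 to 0.26). Relative to equally bright genes the medians were 0.03 and -0.08 under loess. They were the same after rounding under median centring, an agreement built into that comparison. The ranges overlapped over most of their width.

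The GC box was found in 57.5% of member promoters and 35.7% of all promoters, in 10 of 15 of those called lower and 13 of 24 others. Counted by gene, the 22 members with it had a median log2 ratio of -0.05 and the 14 without it -0.11. Relative to equally bright genes these were -0.03 and -0.06 under loess. The core of the antioxidant response element was found in 15% of member promoters, against 12.4% of all promoters. The 6 genes with it (*Psmb5*, *Psmb6*, *Psmc6*, *Psmd9*, *Psmd12* and *Psme4*) held 2 called higher and 2 called lower, with a median log2 ratio of 0.04, and the 30 without it had a median of -0.10. The ranges overlapped, at -0.34 to 0.21 and -0.38 to 0.53. For *Psmb5* the brighter probe was used, at 0.13, whereas the dimmer one gave -0.27, and the median of the 6 depends on this choice. These matches describe letters in the window and were not tested as sites.

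Other genes of the ubiquitin-proteasome system included 2 past 1.5-fold, *Zfand2a* and *Psmb8*. Of 35 such genes on fixed lists, immunoproteasome genes included, 33 were measured, with 8 lower and 9 higher, beside the 23.7% and 30.6% of all genes given above. Among 16 measured partners of the proteasome, 3 fell and 3 rose (none and 13 with median centring, under which 54.5% of all genes were higher), and *Zfand2a*, a stress-induced protein that binds the cap, rose to 0.86 and 0.93 (0.90 ± 0.05, SD, n = 2; limma, adjusted p = 5.41e-05), past 1.5-fold. *Pomp*, the maturation factor of the 20S core, which works after the *Psmg* chaperones, gave -0.13 and 0.09 and did not pass the test.

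Of 6 measured regulators of proteasome genes, 1 fell and 3 rose (none and 5 with median centring). *Nfe2l1*, which encodes Nrf1, the factor that induces proteasome genes when activity falls short, gave -0.28 and -0.17 (limma, adjusted p = 0.0089), and -0.04, not called, with median centring. The 3 small Maf genes, whose proteins pair with Nrf1 and Nrf2, were higher, with *Maff* at 0.28 and 0.53. Among 4 genes for ubiquitin and its activation 2 rose (3 with median centring, 1 with processed signals and 1 with the authors' table). *Ubb*, a polyubiquitin gene, went from 0.19 with loess to -0.01 with processed signals and 0.03 with the authors' table, not called in either. The other was *Rps27a*, which encodes ubiquitin fused to a ribosomal protein, at 0.45 and 0.50. The mean over its probes was 0.14, and its ratio was 0.20 with processed signals and 0.24 with the authors' table. *Uba6*, an alternative activating enzyme, gave -0.32 and -0.28 and fell, but was -0.10 and not called with median centring, and the mean over its probes was -0.15. *Rps27a* was among the brightest genes, at a brightness of 17.45, and the 500 genes nearest to it had a median log2 ratio of 0.27, so that its distance from equally bright genes was 0.20, whereas that of *Zfand2a* was 0.86. In the Vcp segregase, which extracts ubiquitinated proteins for the proteasome, *Nploc4* rose (0.31 on both arrays) and the other 3 did not pass the test, though all 4 were called higher with median centring.

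**Figure D4:**
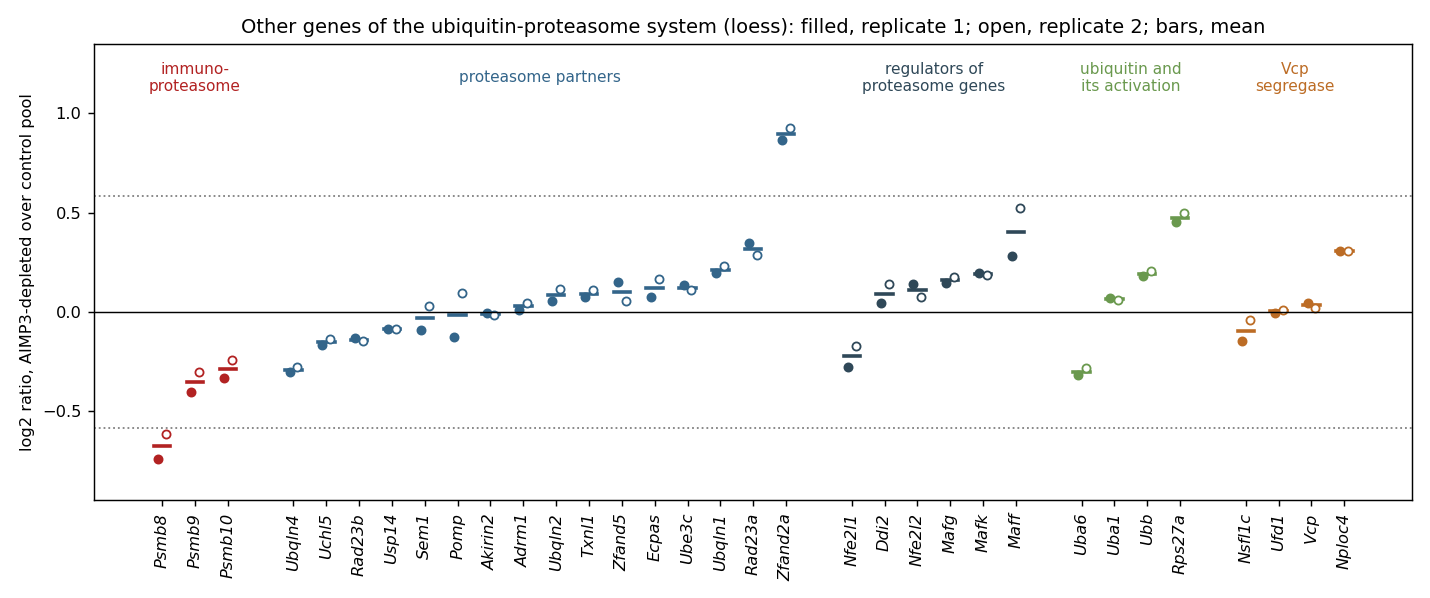
Log2 ratio of AIMP3-depleted over the control pool (vertical axis) for 33 other genes of the ubiquitin-proteasome system (horizontal axis), by list, after loess. Filled points are replicate 1, open points replicate 2, bars the mean and dotted lines 1.5-fold. *Zfand2a* (0.90) lies above 1.5-fold and *Psmb8* (-0.68) below it.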

How the data were processed

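RNA of AIMP3-depleted mESCs (Cy5) was compared with a pool of control RNA (Cy3) on 2 Agilent mouse arrays designed on build mm9. Each array file deposited by the authors holds spot intensity on a linear scale with background from Feature Extraction (version 11.5.1.1 in the file headers), processed signals and their log10 ratio. The authors' value table holds log2 ratios from GeneSpring, which matched the log2 ratio of the processed signals plus 0.040 and 0.039 on the arrays for 99.7% of probes (tolerance 0.01). The log10 ratio column in the deposited files, 0 for 20.4% and 20.7% of spots, was not tested. The study's methods word the ratio as control over test, and here every ratio is AIMP3-depleted over control. All value columns were mapped to samples.

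Median signals were background-corrected with normexp (offset 50) and loess-normalized within arrays with control spots at weight 0 (limma 3.58.1, R 4.3.3). Outlier spots (215 and 227) were dropped, then repeated spots averaged. Of 55681 probes, 33012 were kept, those that on each array stood well above background in Cy5, Cy3 or both, with the brightest probe standing for its gene. Names came from accessions matched to RefSeq, which named 14972 of the tested genes. The log2 ratios were tested against 0 with limma's moderated test (lmFit, eBayes), adjusted by Benjamini-Hochberg over 24023 genes. The steps were tested on simulated data. The number of arrays limits the precision. Median signals over background were 2.68 and 2.72 in Cy3 and 3.31 and 2.93 in Cy5.

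Genes named are the highest and lowest of each class, those past 1.5-fold with p under 0.05, those whose probes differ in sign, and *Eef1e1*, with others given to describe a class. Members and lists were chosen with earlier results of these data known, and the grouping of *Psmg1* to *Psmg4*, their distance from the 20S core, the comparison with equally bright genes and the medians of genes by motif were added after the data were seen. Some genes of the other lists are not reported here. Alternatives were median centring, processed signals, the authors' table, no background subtraction, no filter or a stricter one, the mean of all probes, the methods' test, other class assignments, and leaving out each replicate.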

Additional observations from a re-analysis of the deposited data

How the results depend on the processing

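The level of the proteasome genes depended on the dye normalization. With median centring 27 were higher and 1 lower (54.5% and 8.76% of all genes), and 1 higher gene (*Psme3*) was past 1.5-fold. With processed signals 2 were higher and 13 lower (21.8% and 23.3% of all genes), and 12 were lower with the authors' table (19.1% of all genes). Without a filter 3 were higher and 14 lower (18.3% and 12.9% of the 37018 genes then tested), and *Psmb5* was no longer called. *Psme3* stayed the highest member, whereas *Psmg1* went from the lowest to the 6th lowest with median centring and the 5th with processed signals and the authors' table. The methods' test on 2 ratios called 0 higher and 0 lower after Benjamini-Hochberg adjustment, with 11 of 44 at an unadjusted p under 0.05 (5879 of all genes), against 26 of 44 with limma (60.5% of all genes). The median over all members was 0.20 with median centring, -0.095 with processed signals, -0.055 with the authors' table, -0.116 without a filter (which adds *Psmb11*) and -0.122 per probe. For the 20S core it was 0.21, -0.082, -0.042 and -0.132 in the first 4 of these, and -0.120 without background subtraction. For the 19S cap it was 0.27, -0.045 and -0.0052 in the first 3. For the activators it was 0.17 with median centring and -0.054 with the authors' table. For the chaperones it was 0.034 with median centring and -0.245 with processed signals. Counting *Psmd5*, *Psmd9* and *Psmd10* with the cap, as their symbols do, gave -0.049 for the cap and -0.324 for the chaperones. With median centring the median of *Psmg1* to *Psmg4* was -0.068, and its distance from the core -0.28. Leaving out each replicate in turn gave 0 to 1 genes higher past 1.5-fold (*Psme3*, without replicate 2), medians of -0.110 to -0.103 for all members and of -0.089 to -0.076 for the cap. A single array gives no test. The prior degrees of freedom that limma estimated were 5.243 with loess, 1.777 with processed signals and 1.813 with the authors' table, and with median centring they were infinite, which gives every gene the same variance.

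With median centring 25 of the 32 members with a negative ratio turned positive, 13 of them among the 20 called lower, and none turned negative. Among the genes named by rule, the sign changed for *Psma7* (0.060), *Psmb4* (0.21), *Psmc1* (0.29), *Psmd12* (0.034), *Psmd10* (0.18) and *Nsfl1c* (0.25) with median centring, *Psmb5* (-0.070) and *Psmd10* (0.12) with the mean of probes, *Psmd9* (-0.00099) without background subtraction and *Nsfl1c* (0.0013) with the authors' table. Without replicate 2, *Psmd9* was at -0.04 and *Psmd10* at 0.07. The cause was not tested beyond the brightness values given above. No paired analysis was possible because both arrays belong to 1 group. With dyes not swapped and no channel of a control replicate alone, a gene's own dye bias cannot be told apart from depletion.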
